A study of Mus musculus with 12 samples.

Results

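The 6 littermate control left atria (LA) of the series, 6 of its 12 RNA-sequencing libraries, were described across all genes to give the baseline transcriptome of the adult mouse LA. The libraries were chosen by their labels, genotype control with *αMHC-rtTA* and tissue left atrium, and no library of the iNICD group entered any value below. The controls carried the *αMHC-rtTA* transgene, in which the cardiomyocyte promoter of *Myh6* drives the reverse tetracycline transactivator, but not *tetO_NICD*, the doxycycline-dependent Notch1 intracellular domain. They were mice of a mixed genetic background, 4 female and 2 male, placed on doxycycline chow at an age of 2 to 3 months for 3 weeks without washout. The baseline is therefore that of an atrium that expresses rtTA in cardiomyocytes under doxycycline, and not of an untreated wild-type atrium. Each LA was flash frozen and sequenced as its own library, so the spread given below is a spread between mice together with their libraries. Libraries are named control replicates 1 to 6 by the numbers in their titles. Replicates 5 and 6 are the males.

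The atria are thin-walled chambers that fill the ventricles and also act as an endocrine organ. Atrial cardiomyocytes store atrial natriuretic peptide in granules and release it upon stretch, and they use their own set of contractile proteins: the regulatory light chain *Myl7* and the essential light chain *Myl4* take the places held by *Myl2* and *Myl3* in the ventricle. Relaxation relies on the calcium pump SERCA2 (*Atp2a2*), whose small inhibitors are sarcolipin (*Sln*), typical of atria, and phospholamban (*Pln*), typical of ventricles. The adult mouse heart of both chambers uses the fast α-myosin heavy chain (*Myh6*), while the slow β chain (*Myh7*) is mainly fetal.

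The count totals over 54658 gene names ran from 21555678 to 26902478 (median 24168086). The labelled sexes were checked against *Xist*, with 5888 to 8563 counts in the 4 females and 91 and 17 in the 2 males. Replicate 5 stood apart from the other libraries. Across detected genes, its mean Pearson correlation with the other libraries was 0.955 on the log2(CPM + 1) scale, where CPM is counts per 1000000 counts of the library, against 0.976 to 0.982 for the others. In replicate 5, 17.1% of detected genes differed 2-fold or more from the average of the remaining libraries, against 2.45% to 4.46% in the others. Its sex, animal and library cannot be told apart. The other male, replicate 6, had the next lowest correlation, 0.976, and the next highest share of such genes, 4.46%. The main values that replicate 5 moves are given with and without it. No pair of libraries was a copy: a comparison of their counts gave chi-square values of at least 15.35 per gene. Because tissue was sequenced in bulk, fewer cells of a type and less RNA per cell cannot be told apart in any value below.

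A gene was counted as detected when its mean level was at least 1 TPM and it had a count in every library. TPM, the usual length-scaled unit of transcript abundance, is here the count divided by the deposited gene length and scaled to 1000000 per library, which allows levels of different genes to be compared. By this rule 13928 genes were detected: 12467 nuclear protein-coding genes, 772 long noncoding RNAs, 404 pseudogenes, 96 small noncoding RNAs, 20 mitochondrially encoded genes and 169 others. No library had a single read on 27373 names. Most detected genes were of moderate level, with 5625 between 1 and 10 TPM, 7198 between 10 and 100 TPM and 1030 between 100 and 1000 TPM. A further 65 genes lay between 1000 and 10000 TPM, and the 10 genes at or above 10000 TPM held 33.95% of all TPM.

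The transcriptome was concentrated on a small number of genes. The 10 highest genes of a library took 16.2% to 17.8% of its counts. On average 472 ± 69.1 genes (SD, n = 6, as for all errors below) held 50% of the counts (range 337 to 527). The lowest of these numbers was that of replicate 5, while the other libraries needed 473 to 527 genes. By counts, which favor long genes, the 10 highest were *Myh6*, *Nppa*, *mt-Cytb*, *mt-Co1*, *Atp2a2*, *mt-Nd1*, *mt-Nd5*, *Actc1*, *mt-Nd2* and *Tnnt2*. *Myh6* alone took 33334 ± 2450 CPM and *Nppa* 23818 ± 2498 CPM. Of the 10, 5 were encoded in the mitochondrial genome and 5 were cardiomyocyte genes of contraction, calcium uptake or secretion.

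**Figure D1:**
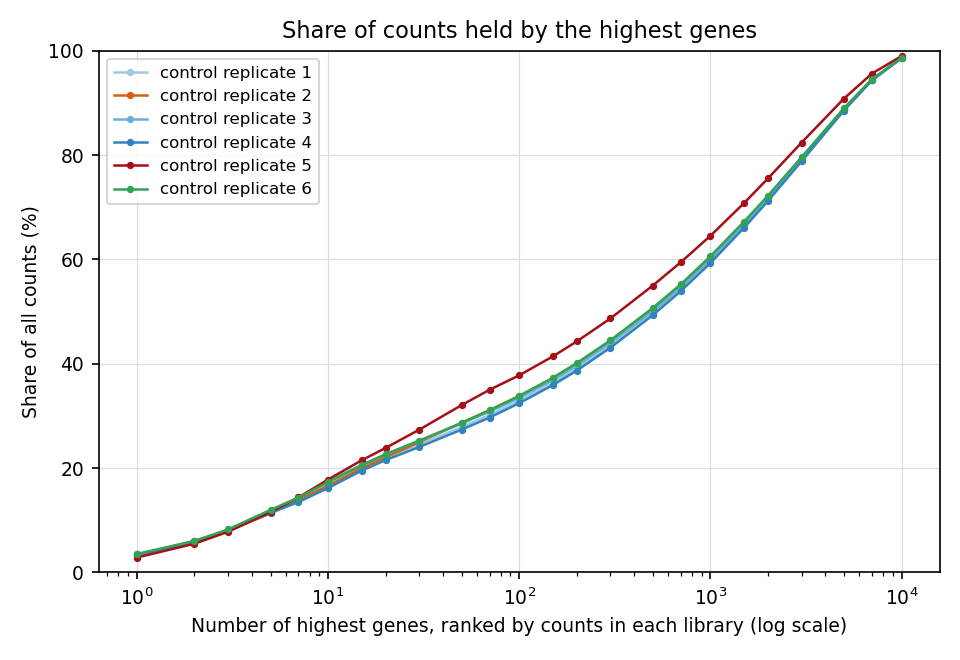
Share of all counts (y axis, percent) held by the highest genes of each library (x axis, number of genes on a log scale), 1 line per control replicate. The lines of the 6 libraries lie close at 10 genes, between 16.2% and 17.8%, and the line of replicate 5 runs above the others from there, reaching 64.5% at 1000 genes against 59.3% to 60.6%.

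By gene class, nuclear protein-coding genes took 90.4% ± 0.758 of counts (range 89.4% to 91.5%). Mitochondrially encoded genes took 8.61% ± 0.723 of counts (range 7.52% to 9.59%) and, since their transcripts are short, 20.9% ± 1.62 of TPM. The methods of the study describe the removal of mitochondrial reads in the processing of LA libraries, yet the deposited table holds them, so whether all of them were kept is not known and mitochondrial shares, ranks and ratios are those of the table. Long noncoding RNAs took 0.814% ± 0.0714 of counts and pseudogenes 0.117% ± 0.00733. The mitochondrial and protein-coding shares of replicate 5 lay within the range of the other libraries, and its shares of long noncoding RNAs and pseudogenes were the lowest, at 0.717% and 0.103%. These are shares of a library from which ribosomal RNA had been removed, and small RNAs are not recovered in full by such libraries.

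Among nuclear protein-coding genes the highest was *Nppa*, which encodes atrial natriuretic peptide, at 73456 to 95584 TPM (median 80394). It was followed by the light chain *Myl7* at 17223 to 26805 TPM (median 24269), cardiac α-actin *Actc1* at 13834 to 34198 TPM (median 16345) and *Myh6* at 12459 to 15688 TPM (median 15277). *Nppa* exceeded every other nuclear gene in all 6 libraries, and its lowest library was above the highest library of *Myl7*. The 5 markers used for atrial cardiomyocytes, *Nppa*, *Myl7*, *Myl4*, *Sln* and *Myh6*, summed to 128653 ± 7076 TPM (range 120956 to 139583), so every library carried them at a high level. *Myh6* is shared with the adult mouse ventricle and does not tell the chambers apart. In mm10 these genes lie at chr4:148000722-148002079 (*Nppa*), chr11:5896637-5898782 (*Myl7*), chr11:104550663-104595753 (*Myl4*), chr9:53850164-53854560 (*Sln*) and chr14:54941921-54966927 (*Myh6*). *Myl4* was at 4894 ± 278 TPM and *Sln* at 3061 ± 625 TPM. Replicate 5 was the lowest of the 6 for *Myl7*, *Myl4*, *Sln* and *Myh6*, but not for *Nppa*. These levels are scaled to library totals. TMM, a normalization to the bulk of genes, gave replicate 5 a factor of 0.858 against 1.02 to 1.04 in the others. With CPM divided by these factors, replicate 5 was no longer the lowest for *Myl4* and *Myh6*.

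The other genes among the 20 highest served contraction, calcium uptake, oxygen and energy supply and other roles. SERCA2 (*Atp2a2*) was at 8231 ± 556 TPM and myoglobin (*Mb*), the oxygen store of muscle, at 7619 ± 1125 TPM. The troponin genes *Tnni3* (inhibitory subunit), *Tnnc1* (calcium-binding subunit) and *Tnnt2* (tropomyosin-binding subunit) were at 4903 ± 547, 3655 ± 671 and 3563 ± 469 TPM. The small heat shock proteins *Hspb7* and *Cryab*, chaperones of the sarcomere, were at 5019 ± 1859 and 3774 ± 1285 TPM. Energy metabolism was represented by the adenine nucleotide carrier *Slc25a4* at 3992 ± 160 TPM, the ATP synthase subunits *Atp5a1* and *Atp5b* at 3268 ± 235 and 3112 ± 245 TPM, and the muscle subunit of cytochrome oxidase *Cox6a2* at 3243 ± 510 TPM. *Gsn*, which severs actin filaments, and *Gpx3*, a secreted glutathione peroxidase, are not restricted to muscle and were at 4369 ± 995 and 4225 ± 393 TPM. Of the remaining genes, *Ankrd1*, a stretch-responsive protein of the sarcomere, at 7964 ± 6875 TPM and *Nppb*, which encodes brain natriuretic peptide, at 3213 ± 3845 TPM, had the largest CV (SD over mean) of the 20. *Ankrd1* ranged from 3325 to 21033 TPM (median 4710) and *Nppb* from 461 to 10636 TPM (median 1491). In both the highest library was replicate 5 and the next was replicate 2, and without replicate 5 the means fell to 5350 ± 2801 and 1729 ± 1396 TPM.

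The order of levels was only partly fixed. Of the 19 pairs of neighbors in the order of the 20 genes, only *Nppa* over *Myl7* and *Myh6* over *Atp2a2* stood in the same order in all 6 libraries. The other neighbors changed places in at least 1 library, so most of the order is not larger than the spread between libraries. The ranks also depended on the length assigned to a gene. The deposited length is the union of all annotated exons, which for *Myl4* is 4637 bases against 943 bases of its principal transcript, and for *Tnnt2* 7752 against 1200 bases. With lengths of the principal transcript, *Myl4* and *Tnnt2* rose to 17881 and 17096 TPM and to ranks 2 and 4 among nuclear protein-coding genes, while *Nppa* remained first at 61391 TPM.

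**Figure D2:**
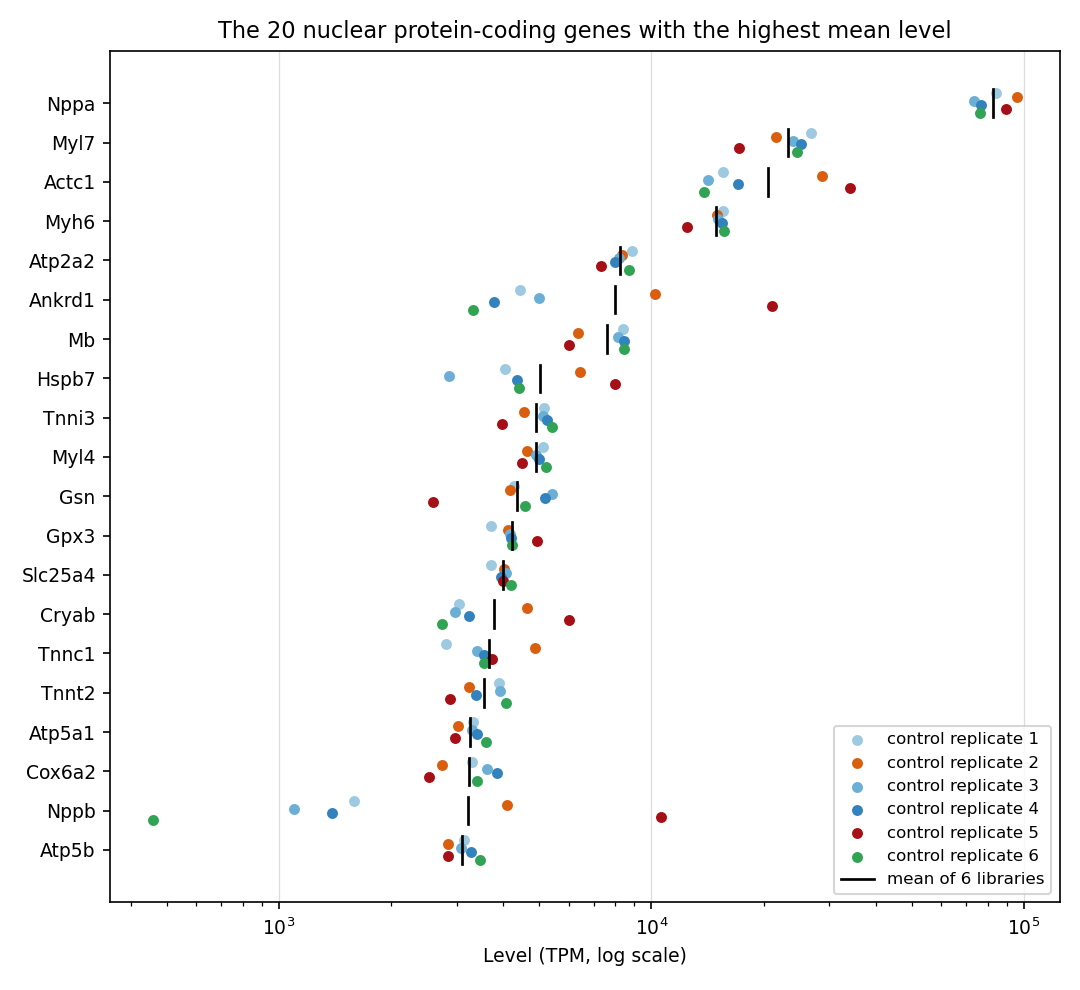
Level (x axis, TPM on a log scale) of the 20 nuclear protein-coding genes with the highest mean (y axis), 1 point per control replicate and a black bar for the mean of 6 libraries. *Nppa* lies apart at 73456 TPM or more, most genes differ little between libraries, and *Ankrd1* and *Nppb* spread widely with replicate 5 at 21033 and 10636 TPM.

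The RefSeq promoter windows of the highest markers, from 250 bases before to 50 after the start site on GRCm38.p6, are shown because these genes are the most abundant of the atrial markers by TPM with the deposited lengths. Windows were found for 4 of the 5 markers. Capitals mark matches, on either strand, to 6 motifs of cardiac or general promoters: the TATA box TATAAA, the GATA motif GATAA, the T-box motif AGGTGTGA, the NKX2 motif TNAAGTG, the CArG box bound by SRF and the MEF2 motif. The windows lie at chr4:148000472-148000771 (plus strand) for *Nppa*, chr11:5898733-5899032 (minus strand) for *Myl7* and chr14:54966558-54966857 (minus strand) for *Myh6*.
Nppa: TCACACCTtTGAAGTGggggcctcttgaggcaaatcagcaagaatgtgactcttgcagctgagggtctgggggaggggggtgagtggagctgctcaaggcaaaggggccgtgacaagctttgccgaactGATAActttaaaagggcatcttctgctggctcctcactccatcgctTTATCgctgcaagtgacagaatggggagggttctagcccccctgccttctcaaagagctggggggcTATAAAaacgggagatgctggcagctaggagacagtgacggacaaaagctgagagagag
Myl7: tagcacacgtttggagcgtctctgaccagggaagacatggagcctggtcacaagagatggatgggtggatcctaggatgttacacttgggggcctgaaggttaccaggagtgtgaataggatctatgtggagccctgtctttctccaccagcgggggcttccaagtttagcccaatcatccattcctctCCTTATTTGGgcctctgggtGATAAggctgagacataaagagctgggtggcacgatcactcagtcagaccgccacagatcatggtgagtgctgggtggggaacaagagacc
Myh6: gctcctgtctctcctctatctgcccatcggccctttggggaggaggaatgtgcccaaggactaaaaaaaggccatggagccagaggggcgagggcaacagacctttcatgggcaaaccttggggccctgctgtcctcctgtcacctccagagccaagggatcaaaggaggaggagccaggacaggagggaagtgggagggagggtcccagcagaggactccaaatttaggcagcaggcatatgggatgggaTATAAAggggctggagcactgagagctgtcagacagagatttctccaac

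The *Nppa* window held a T-box match and an NKX2 match at its far end, 2 GATA matches and a TATA box. *Myl7* held a CArG box and a GATA match, *Myh6* a TATA box, and *Myl4* none of the 6. The TATAAA match began at position −9 from the start site in *Nppa* and at position 1 in *Myh6*. Over all 32851 RefSeq windows, 13.6% held a TATA box, 25.4% the GATA motif, 11.5% the NKX2 motif, 3.19% the MEF2 motif, 1.63% a CArG box and 1.27% the T-box motif. Of the 20 highest genes, 16 had a window, with 21 windows in all. Of these 21 windows, 8 held the GATA motif and 4 a TATA box. The T-box motif and a CArG box were in 2 each, the NKX2 motif in 1 and the MEF2 motif in 0. A match describes the letters of the window only.

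To ask how far the control LA used atrial in place of ventricular or skeletal isoforms, 13 pairs of genes were compared within each library as the log2 ratio of their counts per length, with 0.5 counts added to both. All 13 ratios had the same sign in 6 of 6 libraries. In each the two-sided exact permutation test over sign changes gave p = 0.03125, the smallest that 6 libraries allow, and Benjamini-Hochberg adjustment over the 13 pairs left it at 0.03125. The pairs were chosen for a known difference in chamber or muscle type and with earlier results of these data known, so the p-values are no independent evidence of direction and the ratios are given for their sizes. For *Nr2f2*/*Irx4* the sign was fixed by the added 0.5 counts, since *Irx4* had none, and its p carries no information.

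The light chains separated most. *Myl7*, the atrial regulatory light chain, had a median of 24269 TPM, and its ventricular counterpart *Myl2* 0.354 to 1.69 TPM (median 0.989) from 5 to 26 counts per library. The log2 ratio was 14.53 ± 0.83 (range 13.76 to 15.94). *Myl4*, the atrial essential light chain, was at 4499 to 5202 TPM (median 4946) and the ventricular *Myl3* at 1.19 to 3.99 TPM (median 2.25), a log2 ratio of 10.99 ± 0.64. Neither ventricular light chain overlapped its atrial partner in any library, and both ventricular genes stayed below 4 TPM.

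The heavy chains gave a different picture. *Myh6* varied little, but *Myh7*, the slow chain of fetal and stressed myocardium, was at 10.4 and 6.34 TPM in replicates 1 and 2 and at 767, 398, 311 and 411 TPM in replicates 3, 4, 5 and 6. The log2 ratio of *Myh6* to *Myh7* was thus 10.54 and 11.21 in replicates 1 and 2 and between 4.30 and 5.32 in the others. No library lay between these levels. The *Myh7* reads numbered from 482 to 52091 per library, and 15.6% of the 50-base windows of its transcripts were shared with other gene names elsewhere (20.2% for *Myh6*). *Mhrt*, a long noncoding RNA of the same locus antisense to *Myh7*, did not follow this split, at 1308 and 1409 TPM in replicates 1 and 2 and at 666 to 1605 TPM in the others. The summed level of the 5 ventricular markers was 13.2 to 772 TPM and followed *Myh7* in replicates 3 to 6, where *Myh7* was at 311 TPM or more. In replicates 1 and 2, with sums of 13.8 and 13.2 TPM, *Myl2*, *Myl3* and the repressor *Hey2* made up a larger part beside *Myh7* at 10.4 and 6.34 TPM, and *Irx4* was at 0 throughout.

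Of the hormones, *Nppa* exceeded *Nppb* by a log2 ratio of 5.43 ± 1.46 (range 3.07 to 7.37), or 5.90 ± 1.01 without replicate 5. The smallest ratio was in replicate 5 and the largest in replicate 6. Of the SERCA2 inhibitors, *Sln* at 1935 to 3564 TPM (median 3325) exceeded *Pln* at 348 to 1421 TPM (median 1303) by a log2 ratio of 1.64 ± 0.48. Replicate 5 was lowest for both genes, and its ratio of 2.47 was the highest. As counts, without scaling by length, *Sln* exceeded *Pln* by only 0.57 on the log2 scale.

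Adult cardiac isoforms exceeded those of fetal or skeletal muscle by a wide margin. The cardiac troponin I gene *Tnni3* exceeded the fetal *Tnni1* (2.00 to 13.5 TPM, median 9.30) by a log2 ratio of 9.33 ± 0.86 (9.01 ± 0.37 without replicate 5). Cardiac actin *Actc1* exceeded skeletal actin *Acta1* (0.992 to 28.8 TPM, median 2.76) by 12.22 ± 1.48. *Acta1* was highest in replicates 5 and 2, at 28.8 and 16.7 TPM, and at 0.992 to 3.81 TPM elsewhere. *Atp2a2* exceeded the skeletal calcium pump gene *Atp2a1* (3.26 to 20.2 TPM, median 6.87) by 10.17 ± 0.86.

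Regulators and channels of the chambers were compared in the same way. *Hey1*, the atrial member of the Notch-responsive Hey repressors, was at 9.58 to 16.8 TPM (median 15.8) and the ventricular *Hey2* at 1.11 to 1.67 TPM (median 1.51), a log2 ratio of 3.27 ± 0.24. *Nr2f2* (COUP-TFII), which maintains atrial identity, was at 15.7 to 37.7 TPM (median 29.8), while the ventricular *Irx4* had no count in any library. Since a count of 0 allows up to 3 counts, *Irx4* was below 0.130 to 0.159 TPM and *Nr2f2* at least 116-fold higher in the library with the smallest difference. The acetylcholine-activated potassium channel subunit *Kcnj3*, typical of atria, was at 71.9 to 483 TPM (median 390) and *Kcnj2*, which carries the inward rectifier of the ventricle, at 21.9 to 52.1 TPM (median 34.9), a log2 ratio of 3.06 ± 0.71. In replicate 5 *Kcnj3* was lowest, and without it the level was 405 ± 64.7 TPM.

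In 2 pairs the gene known from atrial or nodal cells was the lower one. The atrial connexin 40 gene *Gja5* was at 11.4 to 85.1 TPM (median 46.2), below the general cardiac connexin 43 gene *Gja1* at 147 ± 11.4 TPM (median 148), a log2 ratio of −1.80 ± 0.93 (−1.46 ± 0.47 without replicate 5). *Gja1* varied little between libraries, and *Gja5* was lowest in replicate 5. The pacemaker calcium channel gene *Cacna1d* was at 1.03 to 3.37 TPM (median 2.69) against 25.1 ± 3.19 TPM (median 24.5) for *Cacna1c*, the main L-type channel of working myocardium, a log2 ratio of −3.42 ± 0.64.

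**Figure D3:**
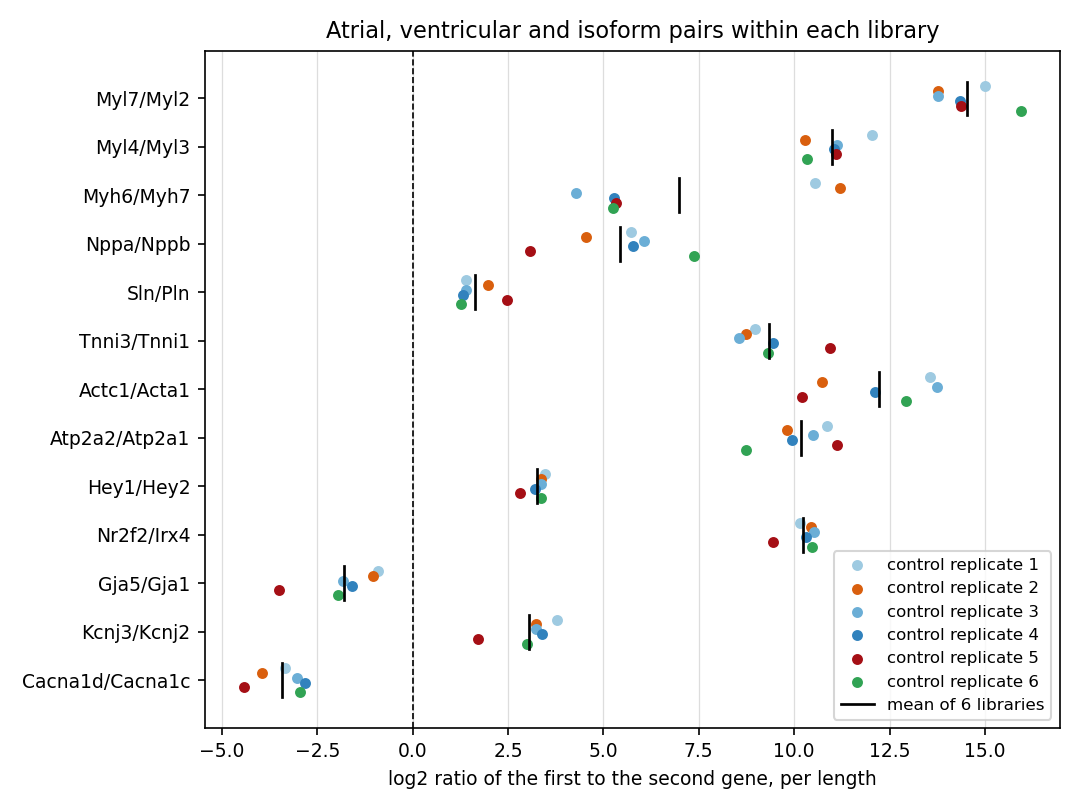
Log2 ratio of the first to the second gene of each pair, from counts per length (x axis), for the 13 pairs (y axis), 1 point per control replicate, a black bar for the mean and a dashed line at equal levels. All points of a pair lie on the same side of the line. The points of *Myh6*/*Myh7* fall apart, with replicates 1 and 2 at 10.54 and 11.21 and the others at 5.32 or less, and the ratio to *Irx4*, which had no count, rests on the added 0.5 counts.

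The thick filament genes summed to 48172 ± 5301 TPM, with 11 of 12 detected. After the light and heavy chains the next was *Mybphl*, an atrial relative of myosin-binding protein C, at 1608 to 2826 TPM (median 2442). Thin filament genes summed to 36375 ± 8377 TPM (33864 ± 6358 without replicate 5), with 12 of 12 detected, led by *Actc1* and the troponins named above. The Z-disc and titin list summed to 22123 ± 10488 TPM, with 14 of 14 detected, and varied more than the other sarcomere lists. *Ankrd1*, *Cryab*, *Tcap* and *Actn2* were its 4 highest genes. Telethonin (*Tcap*), which caps titin at the Z-disc, was at 406 TPM in replicate 5 and at 5475 TPM in replicate 6, the other libraries lying between 1184 and 3026 TPM. α-Actinin 2 (*Actn2*), which crosslinks actin at the Z-disc, was at 1508 to 3241 TPM (median 1953) with replicates 5 and 2 highest. Without replicate 5 the Z-disc list was at 18193 ± 4655 TPM.

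The summed level of the genes of calcium handling by the sarcoplasmic reticulum varied less, but its single genes did not. The median CV of the members was 18.7%, against 14.0% for the thick filament list. The list summed to 17475 ± 1229 TPM, with 14 of 14 detected. Calsequestrin 2 (*Casq2*), the calcium store of the reticulum, was at 1288 to 1500 TPM (median 1366). Sarcalumenin (*Srl*), a calcium-binding protein of the same compartment, ranged from 1033 to 1930 TPM (median 1162). For *Srl*, as for *Actn2*, replicates 5 and 2 were the highest.

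Of the 13 genes of natriuretic peptides and their secretory granules, 8 were detected. *Pam*, the amidating enzyme and main membrane protein of atrial granules, was at 1663 to 1924 TPM (median 1754), and the processing enzyme carboxypeptidase E (*Cpe*) was at 431 to 673 TPM (median 593). *Pam* differed little between libraries, in contrast to *Nppb*. Together with *Nppa* these genes are the endocrine program of the atrium. The 5 members that were not detected included the granins *Chga* and *Chgb*, typical of neuroendocrine granules, at 0.0751 and 0.347 TPM, which were named after their values were seen.

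Potassium channel genes summed to 1640 ± 350 TPM, with 18 of 20 detected. The highest were *Kcnj5*, the partner of *Kcnj3* in the acetylcholine-activated channel, at 266 to 461 TPM (median 387), *Kcnj3*, the leak channel gene *Kcnk3* at 241 to 325 TPM (median 281) and the pore of the ATP-sensitive channel *Kcnj11* at 106 to 177 TPM (median 164). Replicate 5 was the lowest library for each of these 4 genes. Its sum of 938 TPM lay below the range of 1675 to 1876 TPM of the others, and without it the list was at 1781 ± 71.4 TPM. Of sodium and calcium channel genes 13 of 16 were detected. The T-type calcium channel *Cacna1h* was at 34.6 to 77.9 TPM in 5 libraries but at 1.3 TPM in replicate 2.

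Genes of the intercalated disc, which joins cardiomyocytes, summed to 2313 ± 263 TPM, with 13 of 14 detected. α-Catenin *Ctnna1* and β-catenin *Ctnnb1* were at 642 ± 39.8 and 314 ± 29.4 TPM, and desmoplakin *Dsp*, the linker of desmosomes to intermediate filaments, at 310 ± 46.2 TPM. *Xirp1*, an actin-binding protein of the disc, was less even, at 1082 and 685 TPM in replicates 5 and 1 and at 143 to 226 TPM in the others. Collagen genes summed to 2009 ± 584 TPM (1874 ± 538 without replicate 5), with 30 of 44 detected. The basement membrane collagens *Col4a1* and *Col4a2* were at 159 to 765 TPM (median 209) and 138 to 573 TPM (median 161). Both were highest in replicates 5 and 2, while fibrillar *Col3a1*, at 205 to 393 TPM (median 294), was highest in replicate 2.

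Oxidative metabolism took a large share of the transcriptome. The 78 nuclear genes of oxidative phosphorylation summed to 39176 to 47197 TPM (median 44000). All 78 were detected. Complex I with 37 members, complex IV with 13 and complex V with 15 contributed 12035 ± 803, 12125 ± 1090 and 11617 ± 907 TPM (complex V, 1.16% of TPM, became 1.76% with principal transcript lengths), and complexes II and III 2103 ± 212 and 5309 ± 320 TPM. Subunits typical of striated muscle led complex IV, with *Cox6a2* followed by *Cox7a1* at 1762 ± 201 TPM. Fatty acid oxidation, the main fuel pathway of the adult heart, summed to 7287 ± 995 TPM with 21 of 21 detected, led by the fatty acid binding protein *Fabp3* (965 to 1430 TPM, median 1141) and the dehydrogenase *Acadl* (925 to 1292 TPM, median 1103). Replicate 2 was the lowest library for the fatty acid list and replicate 6 the highest.

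Genes encoded in the mitochondria divided sharply. Of the 13 protein-coding genes 7 were above 1000 TPM, led by *mt-Cytb*, a subunit of complex III, at 52651 to 67318 TPM (median 60844), and 6 were below 1 TPM. The low ones were *mt-Co2*, *mt-Co3*, *mt-Atp6*, *mt-Atp8*, *mt-Nd3* and *mt-Nd4l*, which encode subunits of complexes IV, V and I. For 5 of these 6, at least 98.0% of the 50-base windows of the transcript were also found in gene names elsewhere in GENCODE. For *mt-Atp8* this was 0%, as it was for the abundant *mt-Cytb* and *mt-Nd1*, while the abundant *mt-Co1*, at 36318 ± 2193 TPM, had 51.1%. The part of reads that map to more than 1 place in these low values was not tested. The summed level of mitochondrially encoded mRNA was 178450 to 222502 TPM, or 4.25 to 5.05 times that of the nuclear genes of oxidative phosphorylation, with no library apart.

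Some nuclear genes with shared sequence were also low. Glycolysis genes summed to 8609 ± 868 TPM with 19 of 19 detected, led by the muscle isoforms *Pgam2* (1444 to 2412 TPM, median 2261) and *Eno3* (1263 to 1940 TPM, median 1671), aldolase *Aldoa* (1208 to 1351 TPM, median 1252) and phosphofructokinase *Pfkm* (519 to 1036 TPM, median 920). *Gapdh*, *Pgk1* and *Eno1*, named after their values were seen, were at 6.07 ± 1.22, 14.0 ± 1.37 and 11.5 ± 1.14 TPM, with 24.7%, 53.9% and 26.0% of windows found elsewhere. The part of shared sequence in these levels was not tested, and *Fabp3*, with 29.2% of windows found elsewhere, was at 1162 ± 181 TPM. Among 91 cytosolic ribosomal protein genes 81 were detected. Of all 91, the 45 with at least 20% of windows found elsewhere had a median of 4.48 TPM, against 27 TPM for the 43 with 1% to 20%.

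Of 38 cardiac transcription factors (TFs), 35 were detected. The highest was *Hopx*, a homeodomain cofactor without DNA binding, at 193 to 402 TPM (median 336), followed by *Tbx5*, the T-box factor of atrial identity and rhythm, at 223 to 313 TPM (median 272). They were followed by *Srf*, the factor that binds CArG boxes, at 174 ± 59.9 TPM, the metabolic regulator *Esrra* at 161 ± 13.8 TPM, *Mef2d* at 135 ± 18.7 TPM and *Gata4* at 125 ± 13.2 TPM. The core factors *Nkx2-5* and *Tbx20* were at 94.6 ± 18.8 and 91.3 ± 19.6 TPM. *Mef2a*, *Tead1*, *Gata6*, *Ppargc1a*, *Heyl*, *Hand2* and *Myocd* had means between 36.8 and 57.9 TPM. At the low end, *Zfhx3*, a homeobox repressor, was at 1.16 TPM, the ventricular conduction factors *Irx3* and *Irx5* at 1.28 and 1.33 TPM, *Hey2* at 1.46 TPM, the sinus node factor *Shox2* at 1.53 TPM, *Isl1* at 0.0267 TPM, and *Hand1* and *Irx4* had no count. *Srf* was highest in replicate 5 and lowest in replicate 6, while replicate 5 was the lowest library for *Hopx*, *Nr2f2* and *Hey1*.

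Of the left-right and nodal genes, *Bmp10*, a ligand made mainly by the right atrium in adult mice, was at 21.6 TPM in replicate 2 and at 0.771 to 3.82 TPM in the other 5 libraries. The pacemaker channel gene *Hcn4* was at 0.174 to 1.47 TPM and *Shox2* at 1.03 to 2.34 TPM. *Tbx3*, a repressor of the working program in nodal cells, was at 2.17 to 3.76 TPM. The 4 sinoatrial node markers summed to 4.23 to 7.09 TPM, so this tissue held little of their transcripts in any library.

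Markers of 18 cell types were summed to see which other cells the LA held. After atrial cardiomyocytes, the fibroblast list was the highest at 1173 to 1945 TPM (median 1581), or 0.157% of TPM, which became 0.257% with principal transcript lengths. Its leading genes were the matrix proteoglycans decorin (*Dcn*, 628 ± 119.7 TPM) and lumican (*Lum*, 304 ± 109 TPM). Macrophage markers summed to 714 to 941 TPM (median 783), led by lysozyme (*Lyz2*, 341 ± 53.1 TPM) and the complement genes *C1qa* and *C1qb* (184 ± 22.6 and 129 ± 20.6 TPM). Endothelial markers summed to 481 to 571 TPM (median 536), led by the junction proteins *Pecam1* and *Cdh5* at 128 ± 21.2 and 113 ± 9.34 TPM. Each of these 3 lists varied less than 2-fold between libraries. The order of macrophage and endothelial markers held for TPM with the deposited lengths and turned with principal transcript lengths (0.0601% and 0.0720% of TPM) and as shares of counts (0.0456% and 0.109%).

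Transcripts of marker genes of blood, smooth muscle and surface cells were also present. The erythroid list ranged from 235 TPM in replicate 3 to 929 TPM in replicate 6 (median 633), led by the hemoglobin gene *Hbb-bs* at 138 to 599 TPM, and 4 of its 5 genes had at least 20% of windows shared with another gene name. Its place also depended on the unit, with 0.0610% of TPM but 0.0161% of counts, below the lists of smooth muscle (0.0457%), pericytes (0.0477%), mesothelium (0.0278%) and lymphatics (0.0166%). Smooth muscle markers summed to 309 to 488 TPM (median 362). Most of this was *Smtn* at 209 ± 62.7 TPM, and the members did not vary together, so the sum does not measure smooth muscle cells. In this list *Smtn* was lowest in replicate 5 at 101 TPM, but the calponin gene *Cnn1* was highest there at 217 TPM and next in replicate 2 at 146 TPM, against 4.64 to 27.7 TPM in the others. Mesothelial markers, of the epicardial surface, summed to 232 to 350 TPM (median 303) with *Upk3b* at 104 ± 20.5 TPM, and pericyte markers to 233 to 314 TPM (median 289) with *Rgs5* at 162 ± 24.1 TPM. The lymphatic list was at 56.3 to 111 TPM, mainly from *Lyve1* and *Prox1* with means of 40.5 and 30.7 TPM. Its other members *Flt4* and *Mmrn1* were at 10.7 and 5.64 TPM. The platelet list, at 40.3 to 69.9 TPM, was carried by *Pf4* alone, with *Ppbp* and *Gp9* at 2.33 and 0.461 TPM.

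Other lists were near 0. Schwann and neuronal markers summed to 9.04 to 18.6 TPM, skeletal muscle markers to 5.25 to 14.3 TPM, adipocyte markers to 1.85 to 7.40 TPM and lymphocyte markers to 3.32 to 4.93 TPM. Lung epithelium markers summed to no more than 1.62 TPM, with *Sftpc* and *Sftpb* at 0 in every library, and thymocyte markers to no more than 0.227 TPM. The highest skeletal muscle sum was that of replicate 5 at 14.3 TPM, where *Tnnt3* was at 8.43 TPM, and the others were at 5.25 to 7.72 TPM.

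**Figure D4:**
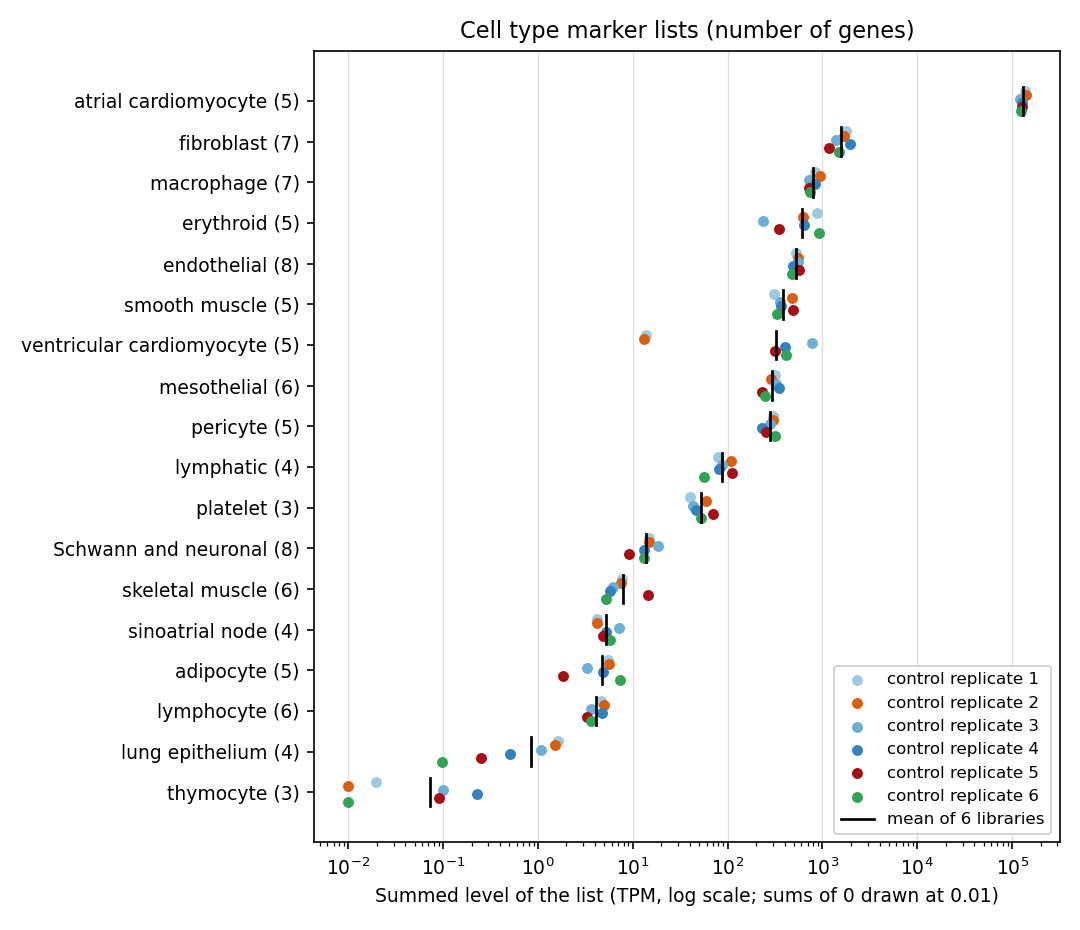
Summed level of each cell type marker list (x axis, TPM on a log scale, sums of 0 drawn at 0.01) with the number of genes in parentheses (y axis), 1 point per control replicate and a black bar for the mean. Atrial cardiomyocyte markers lie above all other lists at 120956 TPM or more, fibroblast, macrophage, erythroid and endothelial markers follow on this scale, and the ventricular list splits into 13.2 and 13.8 TPM in replicates 2 and 1 and at least 316 TPM in the others.

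Of the noncoding nuclear genes, *Gm42418* had the highest mean, at 850 to 2895 TPM (median 1049), which rested on replicate 6. The gene annotated as microRNA *Mir6236*, at 565 to 2034 TPM (median 836), was also highest in replicate 6, followed by replicate 4 for both genes. *Mhrt*, the cardiac long noncoding RNA of the myosin locus, was at 666 to 1605 TPM, lowest in replicate 5. Its median of 1355 TPM was above that of *Gm42418*, as was its mean with principal transcript lengths (1363 against 1026 TPM). *Malat1*, a nuclear RNA found in all cells, was at 300 to 477 TPM (median 330). *C130080G10Rik*, *Gm15543*, *Ndufb1-ps* and *5430431A17Rik* were at 319 ± 154, 273 ± 18.9, 225 ± 22.3 and 186 ± 113 TPM. *Gm42418* shared 94.95% of its windows with an overlapping gene name. *Nppa* shared 53.4% of its windows with the antisense gene *Gm13054*, which was at 71.6 ± 13.3 TPM, and since it is not given whether counting used the strand, reads of such partners cannot be told apart.

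To describe how much the control LA varied between libraries, the coefficient of variation (CV, SD over mean of CPM) was computed for each gene. It holds the differences between animals and between library preparations, which cannot be told apart. Its median over detected genes was 17.6%, and the central 50% of genes lay between 10.7% and 28.8%. Without replicate 5 the median was 12.1%, and leaving out any other library left it between 17.9% and 18.7%. By CPM, the steadiest genes with at least 10 TPM were *Rac1*, a small GTPase, *Sh3bgrl*, *Preb*, *Metap2* and *Denr*. Their CVs were 1.18% to 1.61%. *Preb* acts in vesicle export from the endoplasmic reticulum, and *Metap2* and *Denr* act in protein synthesis. *Rac1* was at 116 to 119 TPM in all 6 libraries. This steadiness holds for scaling to library totals. The TMM factor was 0.858 in replicate 5 and 1.02 to 1.04 in the others. Genes level in CPM are therefore higher in replicate 5 with TMM-scaled totals, on which their CVs were not ranked.

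The least steady genes were ordered by the same measure. The 8 with the highest CV at 10 TPM or more were *Mt2*, *Thbs1*, *Ptx3*, *Dbp*, *Nmrk2*, *Prg4*, *Hbegf* and *Timp1*, with CVs of 170.2% to 221%. Replicate 5 was the highest library in 7 of the 8, and replicate 2 was second in 6 of those 7. The metallothionein gene *Mt2*, which binds zinc and copper and responds to glucocorticoids and stress, was at 1274 TPM in replicate 5 and at 16.1 to 34.3 TPM in the others. *Thbs1* and *Timp1*, secreted proteins of matrix turnover, were at 201 and 374 TPM in replicate 5, with medians of 8.87 and 18.4 TPM over the 6 libraries. *Hbegf*, a growth factor ligand of the EGF receptor, was at 328 TPM in replicate 5 and at 14.8 to 35.6 TPM in the others. *Nmrk2*, a muscle enzyme of NAD synthesis, was at 721 and 219 TPM in replicates 5 and 2 and at 5.96 to 14.5 TPM in the others. *Dbp*, an output gene of the circadian clock, ran the other way, at 204 TPM in replicate 6, 31.2 TPM in replicate 4 and 2.37 TPM in replicate 5.

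This pattern extended past the named genes. Of 8303 genes with at least 10 TPM, 268 (3.23%) had a CV above 50%, and replicate 5 was the highest library in 153 of them and the lowest in 53. Among all 8303 genes it was the highest in 19.4% and the lowest in 53.3%. When replicate 5 was the highest, replicate 2 was second in 116 of the 153 genes (75.8%), and in 60.7% of all genes at 10 TPM or more for which replicate 5 was highest. Part of the low values of replicate 5 moved with scaling: with totals scaled by TMM, a normalization to the bulk of genes, it was the lowest library in 33.2% and the highest in 34.6% of detected genes, against 56.7% and 14.2% without.

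Without replicate 5, 138 genes had a CV above 50%. The 10 highest were then *Ddx3y* and *Eif2s3y*, which lie on the Y chromosome, *Nmrk2*, *Dbp*, *Cnn1*, *Fos*, *Pttg1*, *Gm15772*, *Gm24601* and *Gm23935*. Only *Nmrk2* and *Dbp* were on both lists. The immediate early gene *Fos* was at 374 TPM in replicate 4 and at 14.2 to 93.3 TPM in the others, and *Pttg1*, a cell cycle gene, at 46.7 TPM in replicate 3 and at 3.25 to 7.12 TPM in the others. *Gm15772*, a pseudogene with 91.5% of its windows found elsewhere, was at 79.6 and 70.4 TPM in replicates 1 and 2 and at 0.539 to 1.11 TPM in the others, which set the same libraries apart as *Myh7* did.

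**Figure D5:**
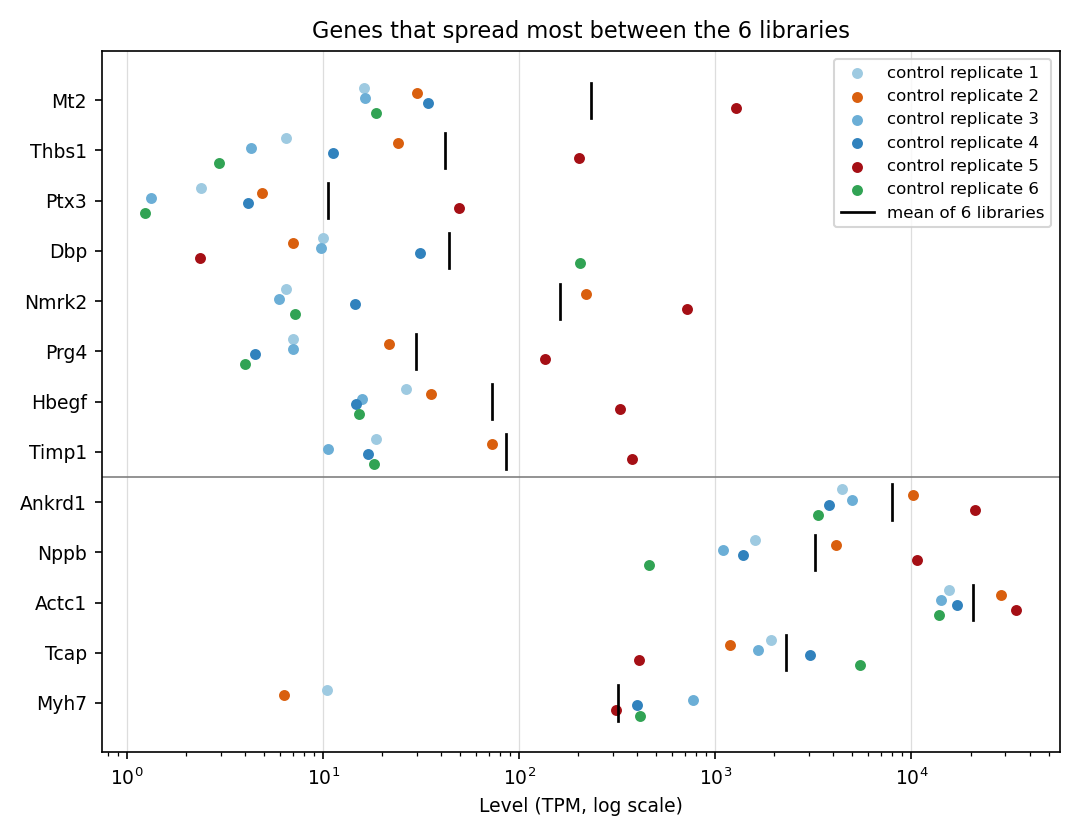
Level (x axis, TPM on a log scale) of the 8 genes with the highest CV among those with at least 10 TPM (above the gray line) and of 5 sarcomere and hormone genes named in the text (below it), 1 point per control replicate and a black bar for the mean. Replicate 5 is the highest point in 7 of the upper 8 genes with replicate 2 mostly next, while *Tcap* is lowest in replicate 5 at 406 TPM and *Myh7* lowest in replicates 1 and 2.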

How the data were processed

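RNA of 6 control LA was measured by RNA-sequencing. Ribosomal RNA was depleted from 1 µg of RNA per library, and 50-bp single-end reads were sequenced. The authors deposited raw read counts per gene name together with a length in bases for each name, in 1 table. Their processing notes name cutadapt, STAR 2.4.2a, featureCounts from Subread and mm10, whereas the methods of the study describe both TopHat2 2.1.1 with HTSeq 0.6.0 and STAR 2.5.4b with featureCounts 1.4.6 on GENCODE M15; which of these made the table, and whether counting used the strand, are not given in the sources used here. The methods describe the removal of mitochondrial reads, but the table holds mitochondrial genes. The table also held columns of the iNICD libraries, which were not used here.

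CPM and TPM were computed from the deposited counts and lengths over all 54658 names. The lengths equaled the exon union of GENCODE M21 for 53272 names, and classes and coordinates were taken from that annotation (54106 names matched directly, 31 by an older name, 521 not matched). Share of sequence was counted as 50-base windows of the annotated transcripts that also occur under another gene name. Depth was 21555678 to 26902478 counts per library, so the median counting CV of a detected gene was 4.41%. Limits from a count of 0 (3 counts) cover counting error only.

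Pair ratios were tested with a two-sided exact sign-change permutation test over 6 libraries, with Benjamini-Hochberg adjustment over 13 pairs. No test across all genes was made, since only 1 group is described. Genes were named by rule: the 20 highest nuclear protein-coding genes by TPM, the 10 highest of any class by CPM, the 8 highest nuclear noncoding genes, all pair members, the 4 highest genes and those at 0 of each list, the cardiac TFs by level, the 10 highest CVs among genes with at least 10 TPM (again without replicate 5) and the 5 lowest. Some genes that this rule names are not reported here. Genes outside it are marked where they appear, apart from the sex and mitochondrial genes and *Gm13054*, which were also chosen after their values were seen. The libraries, pairs and gene lists were chosen with earlier results of these data known. Alternatives were other lengths, prior counts, thresholds and units, TMM factors (edgeR 4.0.16), DESeq2 1.42.0 size factors and leaving out each library. Scripts used Python 3.11.15, numpy 2.4.6, pandas 2.3.3, scipy 1.17.1 and R 4.3.3, and were tested on simulated data. The replicate numbers are those of the titles, and the descriptions exchange the numbers of replicates 4 and 5.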

Additional observations from a re-analysis of the deposited data

Results flagged for a closer look

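Each group of 6 values was searched for a library far from the rest, by the gap between an extreme library and its nearest neighbor relative to the whole range. Of 77 groups, 8 met this, where chance at 1 in 20 would give 3.85, and in all 8 the library was replicate 5. The groups share genes and libraries and are not independent.

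In replicate 5, 337 genes held 50% of counts against 473 to 527 in the others, and 13496 gene names reached 1 TPM against 14115 to 14323. Potassium channel genes summed to 938 TPM against 1675 to 1876 TPM, and *Myh6* was at 12459 TPM against 14981 to 15688 TPM. These levels are scaled to library totals. With CPM divided by the TMM factors, *Myh6* in replicate 5 lay within the range of the others. *Nppb* was at 10636 TPM against 461 to 4105 TPM. The log2 ratio of *Tnni3* to *Tnni1* was 10.94 against 8.56 to 9.44, and that of *Nr2f2* to *Irx4* was 9.44 against 10.16 to 10.53, a ratio that rests on the added 0.5 counts because *Irx4* had none. The skeletal muscle list summed to 14.3 TPM against 5.25 to 7.72 TPM.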

How the results depend on the processing

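The direction was the same for all 13 pairs without length scaling and with longest or principal transcript lengths, and for 12 pairs without the added count (*Nr2f2*/*Irx4* could not be fitted, *Irx4* being at 0). Another length shifts all 6 ratios of a pair nearly alike, so p says nothing on stability here. The sizes moved: with principal transcript lengths, an alternative chosen after seeing the data, the log2 ratio went from 14.53 to 13.40 for *Myl7*/*Myl2*, from 10.99 to 12.16 for *Myl4*/*Myl3*, from −1.80 to −2.60 for *Gja5*/*Gja1* and from −3.42 to −4.57 for *Cacna1d*/*Cacna1c*, and without length scaling it was 12.81, 12.17, −2.64 and −4.17. Without length scaling it also moved to 8.53 for *Tnni3*/*Tnni1*, 10.98 for *Atp2a2*/*Atp2a1*, 0.57 for *Sln*/*Pln* and 11.95 for *Nr2f2*/*Irx4* (11.24 with principal lengths). The detected genes numbered 8303 at 10 TPM, 13499 at 1 CPM and 17447 with no level threshold, against 13928. The 10 highest genes held 13.7% of counts without mitochondrial genes and 34.1% of TPM. As shares of TPM, mitochondrial genes held 20.9%, nuclear protein-coding genes 77.3% and nuclear noncoding genes 1.29%. The atrial list, 12.9% of TPM, was 16.6% over nuclear protein-coding genes, 11.1% with principal lengths and 7.06% of counts, and the ventricular list was 0.0322% of TPM and 0.0920% of counts. The median CV was 41.1% with no filter on level. Leaving out each library gave 13912 to 14022 detected genes, a median CV of 12.1% to 18.7%, the lowest without replicate 5, and a log2 ratio of *Myh6* to *Myh7* of 6.14 to 7.52. With 5 libraries the exact test cannot go below 0.0625, so these are values without a test. No paired analysis was possible because only 1 group is described and its libraries have no partners.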

Other observations

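A search chosen after the data were seen looked for genes whose extreme library lay at least 8-fold from the nearest other in CPM, with 0.5 counts added, among 8304 genes. It found 9, of which 8 are given here. Replicate 5 was higher for *Mt2*, *Ptx3*, *Hbegf* and *Thbs1*, by 38.1-fold, 10.5-fold, 9.57-fold and 8.71-fold, and lower for *Gal3st3*, a sulfotransferase, by 9.74-fold. Replicate 2 was lower for the T-type calcium channel *Cacna1h*, by 27.6-fold. Replicate 4 was lower for the pseudogenes *Gm13443* and *Gm4246*, at 0.220 and 0.565 TPM against at least 17.4 and 9.29 TPM in the others, folds that depend on the added count. Replicates 1, 3 and 6 had no such gene.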
